A study of Homo sapiens with 18 samples.

Results

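Expression is described here for 9 genes of the chemokine system out of 26485 in the table: the chemokines CXCL1, CXCL2, CXCL3, CXCL5, CXCL6, CXCL8, CXCL16 and CCL20, and the chemokine receptor CXCR4. They were picked by name, and the list was selected on earlier results of the same libraries. The earlier results known to bear on it are the thapsigargin responses of CXCL1, CXCL2 and CXCL3 in GemR siCont, that of CXCL2 in Par, the difference of CXCL5 between GemR and Par in vehicle, and the effect of siSTIM1 on the response of CXCR4. For the thapsigargin responses of Par siCont and GemR siCont, their difference, GemR siCont against Par siCont in vehicle, and the effect of siSTIM1 on the response, the values are therefore given as a description with no p. The same holds for CXCR4 in every comparison of siSTIM1. The remaining comparisons use the same libraries, so their p-values are not independent of the choice either. The lists of other genes below were also chosen with earlier results known. Genes named from those lists were mostly picked for the size of their change, so the same limit holds for their p-values in every comparison.

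L3.6pl (Par) is a human pancreatic cancer cell line, and GemR is a gemcitabine-resistant derivative of it that was kept in 64 nM gemcitabine. For 48 h the cells carried a control siRNA (siCont) or one directed at STIM1 (siSTIM1), and for the last 3 h they were given DMSO (vehicle) or 500 nM thapsigargin. The 6 groups were Par siCont, GemR siCont and GemR siSTIM1, each with vehicle and with thapsigargin, and each held 3 libraries. There was 1 resistant derivative and no Par siSTIM1 group, so resistance, drug exposure and other differences between the lines cannot be told apart, and the labels do not say whether replicates were separate cultures. P-values therefore measure the spread between these libraries, which may be technical.

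Chemokines are small secreted proteins that guide cells through G protein-coupled receptors. CXCL1, CXCL2, CXCL3, CXCL5, CXCL6 and CXCL8 carry the ELR amino acid motif, act through CXCR2 (CXCL6 and CXCL8 also through CXCR1) and attract neutrophils, and their genes are classic NF-kB targets in epithelial and tumour cells. CCL20 acts through CCR6, CXCL16 is made as a membrane protein that ADAM10 and ADAM17 can shed, and CXCR4 is the receptor of CXCL12. Thapsigargin blocks the SERCA pump, so that calcium leaks out of the endoplasmic reticulum, and STIM1 is the sensor that then opens calcium channels of the plasma membrane.

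The 6 genes for ELR chemokines lie within 358.788 kb of chromosome 4 (GENCODE 29, GRCh38). In order they are CXCL8 (chr4:73740506-73743716, plus strand), CXCL6 (chr4:73836497-73849064, plus), CXCL1 (chr4:73869393-73871242, plus), CXCL5 (chr4:73995642-73998779, minus), CXCL3 (chr4:74036589-74038807, minus) and CXCL2 (chr4:74097035-74099293, minus). CCL20 (chr2:227805739-227817564, plus) and CXCR4 (chr2:136114349-136118165, minus) are on chromosome 2, and CXCL16 (chr17:4733526-4739922, minus) is on chromosome 17. All 9 are annotated as protein-coding genes. CXCL16 overlaps MED11 on the other strand, and CXCL6 overlaps the pseudogene PPBPP1. The library kit does not mark strand, so reads of CXCL16 and MED11 cannot be told apart where they overlap. CXCL1, CXCL2 and CXCL3 are near copies. Of the 50-base windows of their transcripts, 4.81%, 12.5% and 6.01% occur in another of the 3 genes, so the split of reads between them is uncertain there.

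The 100 bases before the RefSeq start (GRCh38.p14, 5′ to 3′ on the gene's strand) are shown for the 6 clustered genes and CCL20, because genes that share these letters had different values below. Capitals mark each match on either strand to GGNNNTTCC, an NF-kB-type motif, overlaps included.
CXCL1: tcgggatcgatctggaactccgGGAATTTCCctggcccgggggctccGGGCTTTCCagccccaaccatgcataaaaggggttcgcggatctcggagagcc
CXCL2: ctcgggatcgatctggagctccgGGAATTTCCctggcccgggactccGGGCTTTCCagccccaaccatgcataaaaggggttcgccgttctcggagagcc
CXCL3: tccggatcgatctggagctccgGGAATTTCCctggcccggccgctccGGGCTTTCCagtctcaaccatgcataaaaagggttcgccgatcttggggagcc
CXCL5: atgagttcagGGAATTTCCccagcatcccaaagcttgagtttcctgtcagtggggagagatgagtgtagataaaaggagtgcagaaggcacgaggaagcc
CXCL6: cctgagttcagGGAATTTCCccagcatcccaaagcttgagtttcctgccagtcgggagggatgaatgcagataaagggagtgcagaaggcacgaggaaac
CXCL8: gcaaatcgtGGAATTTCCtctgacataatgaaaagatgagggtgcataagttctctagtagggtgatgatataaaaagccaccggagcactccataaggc
CCL20: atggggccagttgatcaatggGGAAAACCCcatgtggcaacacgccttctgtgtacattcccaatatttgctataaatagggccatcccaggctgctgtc

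These stretches lie at chr4:73869293-73869392 (CXCL1, plus), chr4:74099196-74099295 (CXCL2, minus), chr4:74038690-74038789 (CXCL3, minus), chr4:73998678-73998777 (CXCL5, minus), chr4:73836578-73836677 (CXCL6, plus), chr4:73740469-73740568 (CXCL8, plus) and chr2:227813742-227813841 (CCL20, plus). All 6 genes of the cluster held GGAATTTCC, whose first base lay at -91 in CXCL8, -90 in CXCL5, -89 in CXCL6, -78 in CXCL1 and CXCL3 and -77 in CXCL2, counted from the start. CXCL1, CXCL2 and CXCL3 held a further match, GGGCTTTCC, at -53. CCL20 held GGAAAACCC at -79, which matches on the other strand. In the 250 bases before the start, GGNNNTTCC matched in 8 of the 8 members with a promoter in the RefSeq table and in 20.2% of 27305 genes. The letters GGAATTTCC, chosen after the sequences were seen, were in 6 of those 8 members and in 0.502% of the genes. CXCR4 held its match at -230, before the first of its alternative starts. The promoter of CXCL16 was not analysed here.

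Lined up on that motif, CXCL5 and CXCL6 had the same base at 91 of 99 positions, and CXCL1 and CXCL3 at 90 of 100. CXCL1 and CXCL2 had the same base at 51 of the 53 positions nearest the start. Of the other motifs searched on both strands, the AP-1-type TGANTCA was in 1 member (CXCL8, at -137) and 8.06% of genes, and the C/EBP-type TTGCNNAA in 1 member (CXCL2) and 11.03% of genes. TGATGNAA, of the ATF4-C/EBP type, was in 0 members and 3.89% of genes. GGGCGG, of the Sp1 type, was in 4 members and 46.2% of genes, and TATAAA in 3 members (CXCL8, CCL20 and CXCR4) and 13.1% of genes. A match says only that these letters are present.

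Libraries held 8922439 to 16519239 reads. Values are the authors' normalized counts, with the SD over 3 libraries after ±. Log2 fold changes are on the scale log2(normalized count + 1), with the standard error of the limma fit after ±, and this scale understates changes of low genes. A gene is called at an adjusted p under 0.05 over the 13096 genes tested, those with a mean of at least 10. All 9 genes passed that filter. CXCL5 passed it only through the 2 Par groups, and CXCL6 owed it largely to them, so their values of GemR siCont against Par siCont are given with no p. STIM1, the siRNA target, stood at 457 ± 20.6 in Par siCont vehicle, 5890 ± 793 in GemR siCont vehicle and 382 ± 23.7 in GemR siSTIM1 vehicle, so all GemR siCont libraries were far above the others. Of 5 epithelial markers, the keratins KRT8, KRT18 and KRT19 stood at 6851 or more in all 18 libraries and EPCAM at 2286 or more, while CDH1 lay between 81.3 and 641. Their summed level moved with the groups, from 62133 to 67190 over the Par libraries, 39213 to 57045 over GemR siCont and 38106 to 46435 over GemR siSTIM1. Of the leukocyte markers, MS4A1 was at 0 throughout, PTPRC reached at most 3.97, and the macrophage-associated CD68 lay between 71.2 and 173. Of 6 fibroblast markers DCN was at 0. The sum of these 6 moved too, from 2002 to 2255 in Par siCont vehicle, 2975 to 3193 with thapsigargin, 1034 to 1272 in GemR siCont vehicle and 1418 to 1569 with thapsigargin, and nearly all of it was COL1A1. The 4 endothelial markers summed to 212 to 282 in the siCont groups and 114 to 178 in GemR siSTIM1. The part of these in the results was not tested. In such bulk RNA, fewer cells of a type and less RNA per cell cannot be told apart.

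The deviations of each library from its group mean were compared with transcript length across 12419 genes by Spearman's rho. They fell most with length in replicate 1 of GemR siCont vehicle (-0.50) and replicate 1 of GemR siSTIM1 thapsigargin (-0.43). Replicates 2 and 3 ran the other way, with 0.35 and 0.46 in the former group and 0.31 and 0.32 in the latter. Deviations within a group balance out, so rho does not show which of its libraries are unusual. After the accounts of the single genes, the values most moved are given without this pair, a choice made after seeing the data.

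**Figure D1:**
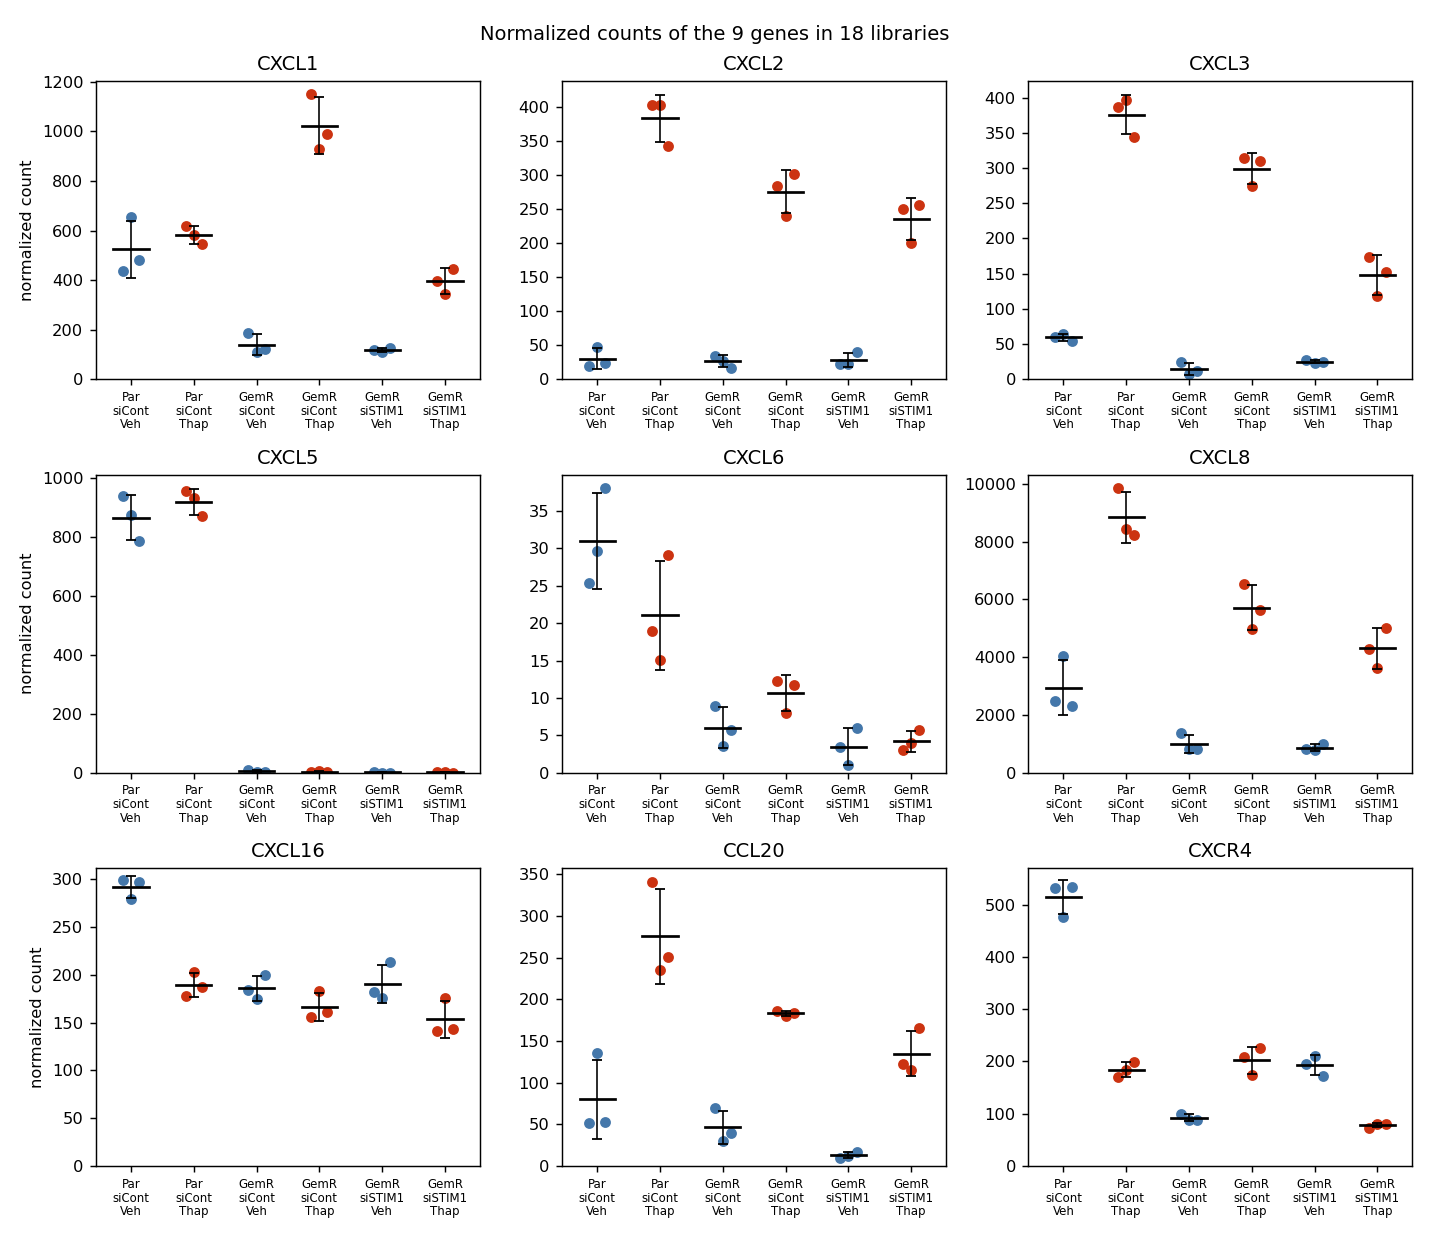
Normalized counts (vertical axes, linear, from 0) of the 9 genes in 18 libraries, by group (horizontal axes). Points are libraries (blue vehicle, red thapsigargin), bars the mean and SD of 3. CXCL5 is near 0 in all GemR libraries, and CXCR4 is highest in Par with vehicle.

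CXCL1, a neutrophil attractant of the cluster, was high in Par whether or not thapsigargin was present, whereas in GemR it was low in vehicle and high with thapsigargin. Par siCont vehicle libraries held 437, 655 and 481 normalized counts, and Par siCont thapsigargin libraries held 619, 584 and 547. These groups overlapped, with a log2 fold change of 0.17 ± 0.17. GemR siCont held 188, 109 and 121 in vehicle and 1151, 929 and 991 with thapsigargin, a log2 fold change of 2.90 ± 0.17. The GemR siCont thapsigargin libraries were the highest of all 18 for this gene. The difference between the 2 responses was 2.73 ± 0.24 on the log2 scale. In GemR siSTIM1 the values were 116, 111 and 126 in vehicle and 397, 342 and 446 with thapsigargin. CXCL1 rose there too, by 1.73 ± 0.17 on the log2 scale (limma adjusted p = 1.6e-07), to a lower level than in siCont.

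Against Par siCont with thapsigargin, CXCL1 was higher in GemR siCont with thapsigargin by 0.81 ± 0.17 on the log2 scale (limma adjusted p = 0.00061), and the groups did not overlap. In vehicle the order was the other way, with a log2 fold change of -1.92 ± 0.17 and again no overlap. The knockdown left CXCL1 in vehicle at an overlapping level (log2 fold change -0.20 ± 0.17, limma adjusted p = 0.35). With thapsigargin CXCL1 was 2.59-fold lower in siSTIM1 than in siCont (log2 fold change -1.37 ± 0.17, limma adjusted p = 3.1e-06). GemR siCont with thapsigargin is the group where the rise of CXCL1 was known. P-values that compare it with Par siCont or siSTIM1 are therefore not independent of the choice of genes. From vehicle to thapsigargin, the siSTIM1 response was smaller than that of siCont by 1.17 ± 0.24 on the log2 scale.

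CXCL2, a neutrophil attractant with nearly the same letters next to its start as CXCL1, was low in vehicle and high with thapsigargin in all 3 kinds of cells. Vehicle libraries held 19.3, 47.5 and 23.4 in Par siCont, 34.5, 27.1 and 17.05 in GemR siCont, and 21.6, 22.4 and 39.7 in GemR siSTIM1. With thapsigargin they held 403, 404 and 343 in Par siCont, 284, 240 and 302 in GemR siCont, and 250, 200 and 256 in GemR siSTIM1. No thapsigargin library overlapped a vehicle library. Its log2 fold changes were 3.73 ± 0.28 in Par siCont and 3.39 ± 0.28 in GemR siCont. In GemR siSTIM1 CXCL2 rose by 3.08 ± 0.28 on the log2 scale (8.45-fold, limma adjusted p = 7.8e-08). The responses of GemR siCont and Par siCont differed by -0.34 ± 0.40, and those of GemR siSTIM1 and GemR siCont by -0.31 ± 0.40.

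Neither GemR nor siSTIM1 gave a called difference in CXCL2 at matched treatment. With thapsigargin GemR siCont lay below Par siCont without overlap, by -0.48 ± 0.28 on the log2 scale (limma adjusted p = 0.17). That value passed the threshold with edgeR (adjusted p = 0.023) and DESeq2 (adjusted p = 0.016), each on 17 libraries. It also passed in a limma fit of these groups alone (adjusted p = 0.00013). For siSTIM1 against siCont the log2 fold change was 0.08 ± 0.28 in vehicle (limma adjusted p = 0.83) and -0.23 ± 0.28 with thapsigargin (limma adjusted p = 0.57).

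CXCL3, of the same subgroup and nearest CXCL2 in the cluster, was high with thapsigargin in all 3 kinds of cells but to different levels. Par siCont libraries held 59.9, 63.8 and 54.6 in vehicle and 386, 397 and 344 with thapsigargin. GemR siCont libraries held 24.5, 7.88 and 11.4 in vehicle and 314, 274 and 310 with thapsigargin. GemR siSTIM1 libraries held 27.3, 22.4 and 24.8 in vehicle and 174, 118 and 152 with thapsigargin. Every thapsigargin library stood above every vehicle library. The log2 fold change was 2.64 ± 0.25 in Par siCont and 4.41 ± 0.25 in GemR siCont, 1.77 ± 0.35 apart. In GemR siSTIM1 CXCL3 rose by 2.52 ± 0.25 on the log2 scale (limma adjusted p = 2.2e-07), and its response minus that of GemR siCont was -1.89 ± 0.35.

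The difference of CXCL3 between siSTIM1 and siCont had opposite signs in the 2 treatments. In vehicle it was higher in siSTIM1 than in siCont by 0.87 ± 0.25 on the log2 scale (limma adjusted p = 0.0095), but the groups overlapped at low counts. The call was lost without GemR siCont vehicle replicate 2 (adjusted p = 0.065), with edgeR (0.097), with DESeq2 (0.054) and with a fit of these groups alone (0.12). With thapsigargin it was lower in siSTIM1 by 2.03-fold (log2 fold change -1.02 ± 0.25, limma adjusted p = 0.0032), with no overlap. The rise of CXCL3 in GemR siCont was known, so this p is not independent of the choice either. GemR siCont and Par siCont differed with thapsigargin by -0.33 ± 0.25 (limma adjusted p = 0.29), and in vehicle by -2.10 ± 0.25, all on the log2 scale. With thapsigargin these groups did not overlap, and a limma fit of them alone gave an adjusted p of 0.0022.

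**Figure D2:**
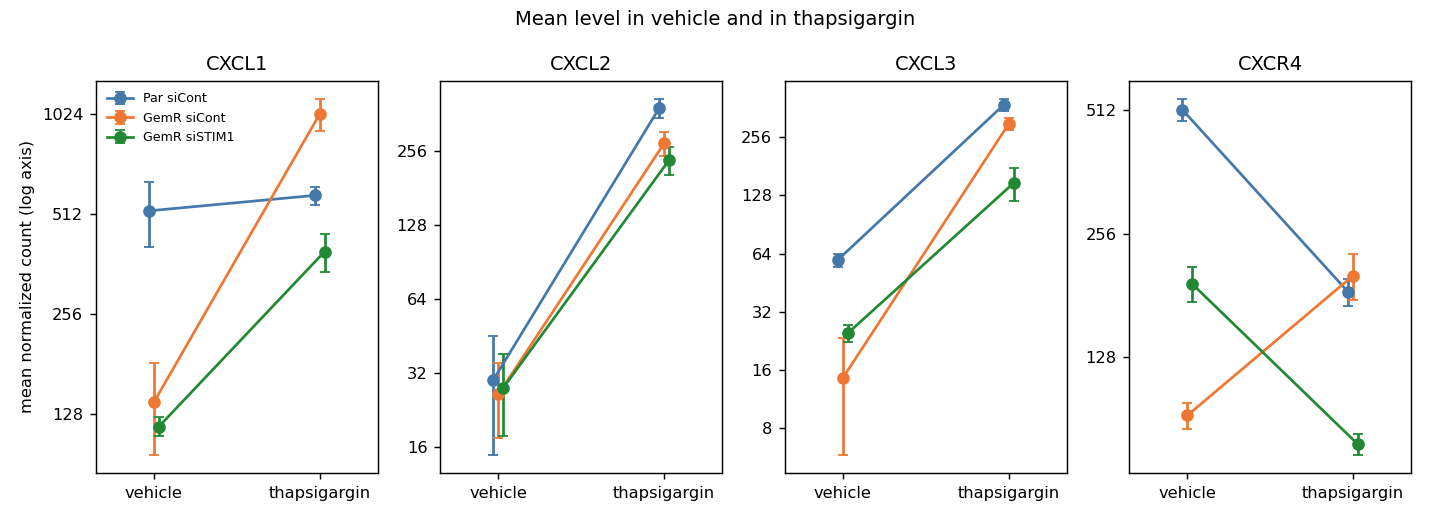
Mean normalized counts of CXCL1, CXCL2, CXCL3 and CXCR4 (vertical axes, log scale, 1 per panel) in vehicle and with thapsigargin. Lines join the groups of 1 kind of cell, and bars are SDs of 3 libraries. The 3 lines of CXCL2 run close together, while CXCR4 has a rising line only in GemR siCont.

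CXCL8, the neutrophil attractant long called IL8, had the highest level per kilobase of exon among the 9 genes in each of the 6 groups. Its part of their summed level per kilobase ranged from 52.1% in Par siCont vehicle to 72.8% in GemR siSTIM1 thapsigargin. Par siCont libraries held 2482, 4036 and 2312 normalized counts in vehicle and 9868, 8445 and 8230 with thapsigargin. GemR siCont libraries held 1364, 821 and 809 in vehicle and 6521, 4989 and 5641 with thapsigargin. GemR siSTIM1 libraries held 807, 772 and 1004 in vehicle and 4294, 3612 and 5011 with thapsigargin. Within each kind of cell the treated and vehicle libraries were apart, and both GemR vehicle groups lay below Par vehicle.

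The thapsigargin log2 fold change of CXCL8 was 1.63 ± 0.20 in Par siCont and 2.55 ± 0.20 in GemR siCont, a difference of 0.92 ± 0.28. That difference was past the threshold of the fit but lost it with no filter on low genes, in a fit of the groups compared alone and with DESeq2, and when any 1 of 7 libraries was left out (Par siCont vehicle replicate 2, where it was 0.67, Par siCont thapsigargin replicates 2 and 3, GemR siCont vehicle replicates 2 and 3, and GemR siCont thapsigargin replicates 1 and 3). In GemR siSTIM1 CXCL8 rose by 2.32 ± 0.20 on the log2 scale (limma adjusted p = 2.9e-08). With thapsigargin it was lower in GemR siCont than in Par siCont by 1.55-fold (log2 fold change -0.63 ± 0.20, limma adjusted p = 0.013). The call was lost without Par siCont thapsigargin replicate 1 (adjusted p = 0.058) or GemR siCont thapsigargin replicate 2 (0.062). In vehicle the log2 fold change of GemR siCont against Par siCont was -1.56 ± 0.20. For siSTIM1 against siCont it was -0.18 ± 0.20 in vehicle (limma adjusted p = 0.49) and -0.41 ± 0.20 with thapsigargin (limma adjusted p = 0.11), where the groups overlapped. The last value passed without GemR siCont vehicle replicate 1 (adjusted p = 0.030) and in a limma fit of these groups alone (0.018).

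CXCL5, another CXCR2 ligand, was abundant in Par and near 0 in GemR. Par siCont libraries held 937, 873 and 786 normalized counts in vehicle and 957, 930 and 870 with thapsigargin. The GemR siCont vehicle libraries held 8, 3 and 1 reads and the thapsigargin libraries 3, 5 and 3, against sums of 2317 and 2712 reads in the matching Par groups. In GemR siSTIM1 the reads were 1, 0 and 0 in vehicle and 1, 2 and 0 with thapsigargin. No Par library overlapped a GemR library. From the reads, CXCL5 was 223-fold lower in GemR siCont than in Par siCont in vehicle, with a 95% exact interval of 127 to 432, and 262-fold lower with thapsigargin (146 to 526). These intervals cover counting error only. With thapsigargin the fitted log2 fold change was -7.70 ± 0.46.

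Thapsigargin left CXCL5 at overlapping levels in Par siCont (log2 fold change 0.09 ± 0.46) and in GemR siCont (0.10 ± 0.46). This standard error is shared by all 6 groups and does not measure the spread in Par alone. For Par siCont the authors' deposited table gave 0.088 with a standard error of 0.11. In GemR siSTIM1 the log2 fold change was 0.42 ± 0.46 (limma adjusted p = 0.58). The limma fit called CXCL5 lower in siSTIM1 than in siCont in vehicle (log2 fold change -1.68 ± 0.46, adjusted p = 0.0066) and with thapsigargin (-1.36 ± 0.46, adjusted p = 0.025). These rest on 1 against 12 reads, a ratio of 0.0899 (95% exact interval 0.00210 to 0.608), and on 3 against 11 reads, a ratio of 0.242 (0.0433 to 0.916). These intervals too cover counting error only, not the spread between libraries. In vehicle the groups overlapped, and 8 of the 12 reads were in GemR siCont replicate 1. Neither difference was called by edgeR (adjusted p = 0.077 in vehicle, 0.085 with thapsigargin) or DESeq2 (0.14 and 0.086). The thapsigargin call was also lost with a pseudocount of 5 (0.074) and without GemR siCont thapsigargin replicate 2 (0.085) or GemR siSTIM1 thapsigargin replicate 3 (0.13). By level per kilobase CXCL5 was the third of the 9 genes in both Par groups and the lowest in all 4 GemR groups.

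CXCL6, which acts through CXCR1 and CXCR2 and shares most promoter letters with CXCL5, was low throughout. Par siCont held 25.4, 29.7 and 38.0 normalized counts in vehicle and 18.9, 15.1 and 29.1 with thapsigargin. GemR siCont held 8.91, 3.50 and 5.68 in vehicle and 12.2, 7.93 and 11.8 with thapsigargin, and GemR siSTIM1 held 3.41, 1.02 and 5.96 and then 2.97, 3.91 and 5.64. Every Par library stood above every GemR library. The thapsigargin log2 fold change was -0.57 ± 0.43 in Par siCont, 0.78 ± 0.43 in GemR siCont and 0.35 ± 0.43 in GemR siSTIM1 (for the last, limma adjusted p = 0.63), and vehicle and treated libraries overlapped in all 3. GemR siCont lay below Par siCont by -2.24 ± 0.43 in vehicle and -0.89 ± 0.43 with thapsigargin. In siSTIM1 with thapsigargin CXCL6 was lower than in siCont by 1.18 ± 0.43 on the log2 scale (limma adjusted p = 0.038). That call was lost with no filter (adjusted p = 0.064), with DESeq2 (0.055), and without GemR siCont thapsigargin replicate 1 (0.11) or replicate 3 (0.10), or siSTIM1 thapsigargin replicate 1 (0.12) or replicate 2 (0.085). At 1 to 13 reads per GemR library, smaller differences were not detectable at this depth.

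Around the cluster, PF4V1, PF4 and PPBP, which lie between its genes, were at 0 in all libraries. Beyond CXCL2 lie the EGF receptor ligands EPGN, EREG and AREG. EREG rose with thapsigargin in Par siCont (log2 fold change 2.02 ± 0.13, limma adjusted p = 3.1e-10), GemR siCont (1.72 ± 0.13, 3.4e-09) and GemR siSTIM1 (1.24 ± 0.13, 4.4e-07). EPGN rose by 2.33 ± 0.34 in Par siCont (limma adjusted p = 1.8e-05). Of the 7 flanking genes, all tested, thapsigargin raised 4 in Par siCont, 2 in GemR siCont and 2 in GemR siSTIM1, and lowered 0. Of all tested genes 40.1%, 33.6% and 24.3% were called in those comparisons, in either direction.

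CCL20, which attracts CCR6-bearing lymphocytes and dendritic cells, lies outside the cluster and was high with thapsigargin in all 3 kinds of cells. Par siCont libraries held 51.8, 135 and 52.7 normalized counts in vehicle and 341, 235 and 251 with thapsigargin. GemR siCont libraries held 69.0, 30.7 and 39.8 in vehicle and 186, 180 and 183 with thapsigargin. GemR siSTIM1 libraries held 10.2, 12.2 and 16.9 in vehicle and 123, 116 and 166 with thapsigargin. Treated libraries exceeded the vehicle libraries of the same cells in each case. Par siCont vehicle replicate 2 and GemR siCont vehicle replicate 1, the high vehicle libraries here, were also the highest of their groups for CXCL1, CXCL2, CXCL3 and CXCL8.

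The log2 fold change of CCL20 with thapsigargin was 1.91 ± 0.31 in Par siCont and 2.04 ± 0.31 in GemR siCont. In GemR siSTIM1 it rose by 3.28 ± 0.31 (9.68-fold, limma adjusted p = 1.2e-07). That response minus the response of GemR siCont was 1.24 ± 0.44, which was not past the threshold of the fit. The knockdown lowered CCL20 in vehicle by 1.70 ± 0.31 on the log2 scale (3.24-fold, limma adjusted p = 0.00030), with no overlap. With thapsigargin the log2 fold change of siSTIM1 against siCont was -0.46 ± 0.31 (limma adjusted p = 0.27), also without overlap. It passed the threshold in a limma fit of these groups alone (adjusted p = 0.024). With thapsigargin GemR siCont lay below Par siCont without overlap, by -0.57 ± 0.31 on the log2 scale (limma adjusted p = 0.14). A limma fit of these groups alone gave an adjusted p of 0.00017. In vehicle the 2 groups differed by -0.70 ± 0.31 and overlapped.

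CXCL16, the membrane-bound chemokine that binds CXCR6, stood highest in Par with vehicle. Par siCont held 299, 279 and 297 normalized counts in vehicle and 178, 203 and 187 with thapsigargin. GemR siCont held 184, 174 and 200 in vehicle and 156, 183 and 161 with thapsigargin, and GemR siSTIM1 held 182, 176 and 214 and then 141, 175 and 143. The thapsigargin log2 fold change was -0.63 ± 0.11 in Par siCont, without overlap, and -0.16 ± 0.11 in GemR siCont, with overlap. Their difference was 0.47 ± 0.16. In GemR siSTIM1 it was -0.31 ± 0.11 (limma adjusted p = 0.045), but the authors' deposited table gave an adjusted p of 0.067, and the call was lost with no filter (0.067), in a fit of these groups alone (0.11), with edgeR (0.29) and with DESeq2 (0.34). Leaving out any 1 of 10 libraries lost it too (adjusted p = 0.051 to 0.21). Those 10 were Par siCont vehicle replicates 1, 2 and 3 and thapsigargin replicate 3, GemR siCont thapsigargin replicates 1 and 3, and both GemR siSTIM1 groups' replicates 1 and 3. For GemR siCont against Par siCont the log2 fold change was -0.65 ± 0.11 in vehicle and -0.18 ± 0.11 with thapsigargin (for the latter, limma adjusted p = 0.18). For siSTIM1 against siCont it was 0.03 ± 0.11 in vehicle (limma adjusted p = 0.84) and -0.12 ± 0.11 with thapsigargin (limma adjusted p = 0.41).

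CXCR4, the receptor, ran in opposite directions in the 3 kinds of cells. Par siCont libraries held 532, 476 and 533 normalized counts in vehicle and 171, 183 and 200 with thapsigargin. GemR siCont libraries held 100.2, 87.6 and 89.0 in vehicle and 208, 174 and 225 with thapsigargin. GemR siSTIM1 libraries held 196, 210 and 173 in vehicle and 73.1, 81.4 and 80.6 with thapsigargin. In each kind of cell the treated and vehicle libraries were apart, with the treated lower in Par siCont and GemR siSTIM1 and higher in GemR siCont.

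The thapsigargin log2 fold change of CXCR4 was -1.47 ± 0.11 in Par siCont, 1.12 ± 0.11 in GemR siCont and -1.29 ± 0.11 in GemR siSTIM1. GemR siCont thus differed from Par siCont by 2.59 ± 0.16, and GemR siSTIM1 from GemR siCont by -2.41 ± 0.16. In vehicle GemR siCont lay below Par siCont by 5.52-fold (log2 fold change -2.47 ± 0.11), and with thapsigargin the lines overlapped (0.13 ± 0.11, limma adjusted p = 0.38). Against siCont, siSTIM1 had higher CXCR4 in vehicle (log2 fold change 1.05 ± 0.11) and lower CXCR4 with thapsigargin (-1.35 ± 0.11), with no overlap in either. By mean level GemR siCont thapsigargin, GemR siSTIM1 vehicle and Par siCont thapsigargin followed each other with overlapping ranges (202 ± 25.7, 193 ± 19.0 and 185 ± 14.4), between Par siCont vehicle (514 ± 32.5) and GemR siCont vehicle (92.3 ± 6.92).

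Without the pair of libraries that stood apart by transcript length, values that rest on GemR siCont vehicle moved in both directions. The thapsigargin log2 fold change in GemR siCont was then 3.14 for CXCL1, 3.61 for CXCL2, 4.84 for CXCL3, 2.80 for CXCL8, 2.36 for CCL20 and 0.74 for CXCL5. GemR siCont minus Par siCont, the difference of responses was 2.97 for CXCL1, 2.20 for CXCL3 and 1.17 for CXCL8. For siSTIM1 minus siCont it was -1.42 for CXCL1, -2.45 for CXCL3 and 0.98 for CCL20. The last of these was smaller than with all libraries, and the other differences of responses named here were larger in size. In vehicle, siSTIM1 against siCont, the log2 fold change was 1.30 for CXCL3 (limma adjusted p = 8.0e-07), and it was smaller in size than with all libraries for CCL20 (-1.38, limma adjusted p = 0.00027) and CXCL5 (-1.05, limma adjusted p = 0.031). Against Par siCont in vehicle, GemR siCont then differed by -2.16 for CXCL1, -2.525 for CXCL3, -8.345 for CXCL5 and -1.02 for CCL20. The value of CCL20 passed the threshold there, and also when Par siCont vehicle replicate 1 or 3 or GemR siCont vehicle replicate 1 alone was left out. The difference of responses of CXCL16, GemR siCont minus Par siCont, was 0.46 and also passed. CXCL16 in GemR siSTIM1 and CXCL6 in siSTIM1 with thapsigargin lost their calls (limma adjusted p = 0.12 and 0.088). For siSTIM1 against siCont with thapsigargin, CXCL8 passed the threshold (log2 fold change -0.42, limma adjusted p = 0.027).

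**Figure D3:**
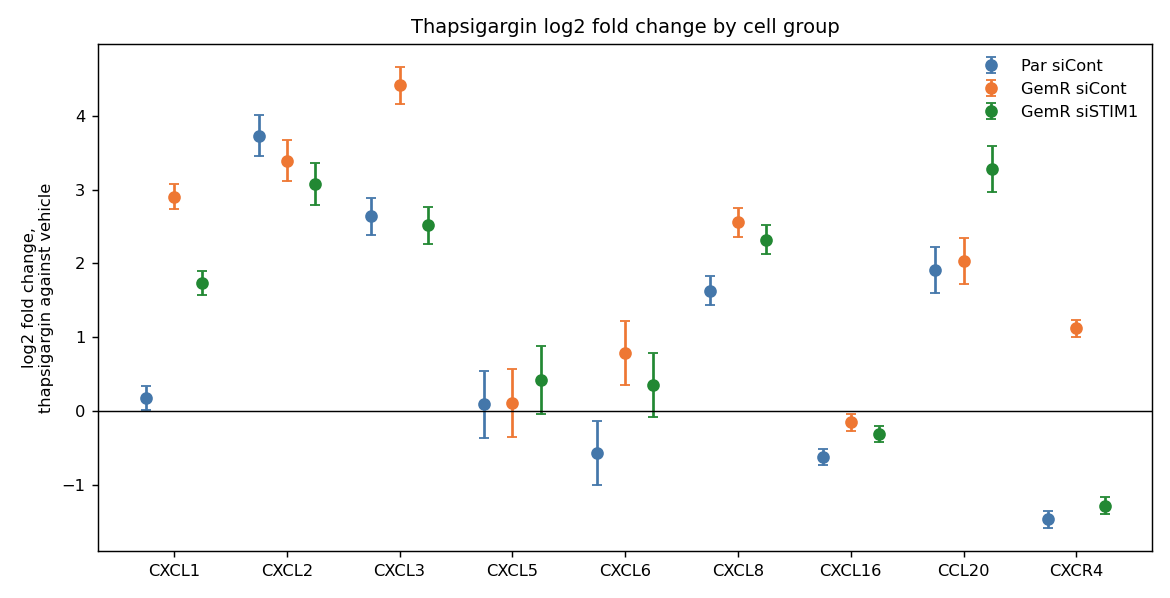
Thapsigargin log2 fold change (vertical axis, on log2(normalized count + 1)) of each gene (horizontal axis) in Par siCont, GemR siCont and GemR siSTIM1, with the limma standard error. CXCR4 is below 0 in Par siCont and GemR siSTIM1 and above 0 in GemR siCont, and CXCL1 is near 0 in Par siCont alone of the 3.

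Counts over the 9 genes stand beside the share of all tested genes called. With thapsigargin 4 were called higher and 2 lower in Par siCont, where 40.1% of all tested genes were called, and 6 higher and 0 lower in GemR siCont, where 33.6% were called. GemR siCont minus Par siCont, 4 genes had a larger and 0 a smaller response, beside 14.8% of all tested genes. In vehicle 0 were called higher and 7 lower in GemR siCont than in Par siCont, beside 38.2%. For siSTIM1 minus siCont 3 responses were lower (CXCL1, CXCL3 and CXCR4), beside 4.41%. Nothing is read from these counts, since the choice of genes used those contrasts.

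In GemR siSTIM1 5 of the 9 rose with thapsigargin and 2 were lower (CXCL16 and CXCR4), beside 24.3% of all tested genes and with a median log2 fold change of 1.73 against -0.01 over all tested. With thapsigargin GemR siCont had 1 higher (CXCL1) and 2 lower (CXCL5 and CXCL8) than Par siCont, beside 48.2%, with medians of -0.48 and -0.00. CXCL5 is no test there, since it passed the filter only through Par, which leaves 1 higher and 1 lower. In vehicle siSTIM1 had 2 higher (CXCL3 and CXCR4) and 2 lower (CXCL5 and CCL20) than siCont, beside 42.0%, with medians of -0.18 and 0.00. With thapsigargin siSTIM1 had 0 higher and 5 lower (CXCL1, CXCL3, CXCL5, CXCL6 and CXCR4), beside 36.6%, with medians of -1.02 and -0.01. CXCR4 is a description in the 3 comparisons of siSTIM1 just given. Without it, 5 rose and 1 fell with thapsigargin in GemR siSTIM1, siSTIM1 had 1 higher and 2 lower in vehicle, and 0 higher and 4 lower with thapsigargin. These comparisons share libraries with those that chose the genes, so nothing is read from their counts and medians either. For siSTIM1 against siCont with thapsigargin, the reference is the group where the rise of CXCL1 and CXCL3 was known. The calls of CXCL5 and CXCL6 in that comparison were lost with DESeq2 (adjusted p = 0.086 and 0.055).

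Other chemokines were hardly expressed. Of 13 other CXC, CX3C and XC chemokines 1 was tested (XCL1, called in 0 of the 9 comparisons), and of 23 other CC chemokines 0. CCL5, a T cell attractant, had a mean of 0 in GemR siCont vehicle and 17.1 with thapsigargin, and CXCL10, an interferon-induced chemokine, one of 9.55 with thapsigargin. Of 22 other receptors only CCRL2 was tested. It passed the filter only through the siSTIM1 groups, so its values are given with no test. CCRL2 had means of 23.9 in GemR siSTIM1 vehicle and 13.6 with thapsigargin, against 5.69 and 4.88 in GemR siCont and 9.24 and 4.64 in Par siCont. CXCR1, a receptor of CXCL8, was at 0 in all libraries. CXCR2, CCR6 and CXCR6, the receptors of most ligands described here, were among the 21 below the filter, as was CXCL12, the ligand of CXCR4, among the chemokines.

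Among genes that act beside a receptor, RGS16 and RGS2, which shut off G proteins, rose with thapsigargin in all 3 kinds of cells. In GemR siCont RGS16 rose by 1.51 ± 0.21 (limma adjusted p = 1.2e-05) and RGS2 by 1.37 ± 0.16 (1.8e-06). Of 10 tested coupling and desensitization genes 4 rose in each kind of cell, 1 fell in Par siCont, and 0 fell in GemR siCont and GemR siSTIM1, beside 40.1%, 33.6% and 24.3% of all tested genes called. ADAM17, a sheddase of CXCL16, rose by 0.91 ± 0.13 in Par siCont (limma adjusted p = 1.3e-05) and 0.95 ± 0.13 in GemR siCont (9.1e-06). MMP1, a collagenase, was lower in siSTIM1 than in siCont, with a log2 fold change of -1.64 ± 0.14 in vehicle (limma adjusted p = 5.4e-08) and -1.60 ± 0.14 with thapsigargin (4.9e-08). The other genes of its list did not share this. Of 4 tested processing and shedding genes, 3 were higher and 1 lower in siSTIM1 in vehicle, beside 42.0% of all tested genes called. With thapsigargin 1 was higher and 1 lower, beside 36.6%.

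NF-kB and AP-1 factors are known to act on promoters of ELR chemokines. Of 15 NF-kB subunits and feedback genes, all tested, thapsigargin raised 8, 8 and 9 and lowered 1, 2 and 2 in Par siCont, GemR siCont and GemR siSTIM1, where 40.1%, 33.6% and 24.3% of all tested genes were called. NFKBIZ, a nuclear coactivator, rose by 2.21 ± 0.16 in Par siCont (limma adjusted p = 1.1e-09), and NFKBIA, the inhibitor induced by NF-kB, by 1.59 ± 0.12 in GemR siCont (1.7e-09). TNFAIP3, a feedback deubiquitinase, rose by 1.06 ± 0.19 in GemR siSTIM1 (limma adjusted p = 0.00031). In siSTIM1 with thapsigargin 3 of the 15 were higher and 5 lower than in siCont, beside 36.6% of all tested genes, REL by 1.23 ± 0.36 lower (limma adjusted p = 0.011). The difference of responses between siSTIM1 and siCont was called lower in 3 (NFKBIZ, BCL3 and NFKBIA) and higher in 0, beside 4.41%.

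Of 12 tested AP-1, C/EBP and NFAT genes, 10 rose and 0 fell in Par siCont, 8 rose and 2 fell in GemR siCont, and 7 rose and 1 fell in GemR siSTIM1. The shares of all tested genes called were 40.1%, 33.6% and 24.3%. FOSB, an AP-1 subunit, had means of 193, 2140 and 244 in GemR siCont vehicle, GemR siCont thapsigargin and GemR siSTIM1 thapsigargin. With thapsigargin it was lower in siSTIM1 than in siCont by 3.17 ± 0.21 (limma adjusted p = 7.5e-10), and FOS by 1.91 ± 0.14 (3.3e-09). In all, 2 of the 12 were higher and 7 lower in that comparison, beside 36.6% of all tested genes. NFATC2, a calcium-regulated factor, rose by 1.54 ± 0.19 in Par siCont (limma adjusted p = 2.4e-06) and 4.17 ± 0.19 in GemR siCont (1.7e-12), and that difference of 2.64 ± 0.27 was called (1.2e-06). Genes named from these lists were mostly those of largest change, so their p-values are not independent of that choice. Among 9 tested proteins that bind AU-rich elements, which many chemokine transcripts carry, ZFP36, which destabilizes such RNAs, was lower in siSTIM1 with thapsigargin by 1.26 ± 0.11 (limma adjusted p = 5.6e-08). There 0 of the 9 were higher and 2 lower, against the same 36.6%.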

How the data were processed

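The authors deposited normalized counts for 18 libraries, a signal made by dividing the gene read counts of a library by its size factor, as seen in the values. The submitters' processing notes name STAR 2.6.0c, HTSeq 0.11.1, DESeq2 and hg38. Annotation and filters: not given in the sources used here. Per the file headers, the authors also deposited log2 fold changes with standard errors and adjusted p-values of their own comparisons. All 18 columns were matched by name and 0 were left unused.

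On log2(normalized count + 1), genes with a mean of at least 10 were fitted with limma 3.58.1 (trend, R 4.3.3) over all 18 libraries with 1 mean per group and 12 residual degrees of freedom. Two-sided p-values were adjusted by Benjamini-Hochberg over 13096 genes in each of 9 comparisons. The fit was tested on simulated data. Values were whole multiples of 1 read for 100% of positive values within 0.01. GemR siSTIM1 vehicle replicate 3 was left out of the edgeR and DESeq2 tests, because its step of 0.993 lay too near 1 to check. It was kept in the read ratio and exact interval of CXCL5 in vehicle, where it held 0 reads. edgeR 4.0.16 (quasi-likelihood, TMM) on the other 17 libraries called 5203, 4363 and 2629 genes for thapsigargin in Par siCont, GemR siCont and GemR siSTIM1. DESeq2 1.42.0 was the other alternative on reads.

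Named genes were the 9 members, STIM1, from each context list up to 4 called genes of largest change (or 2 others), and for each member the 3 genes most like it. CXCR2, CCR6, CXCR6 and CXCL12 are named besides as known partners. Members and lists were chosen with earlier results of these data known. Promoters came from RefSeq (8 of 9 members matched). The other steps used Python 3.11.15 with pandas 2.3.3, numpy 2.4.6 and matplotlib 3.10.9.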

Additional observations from a re-analysis of the deposited data

Results flagged for a closer look

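In 4 genes the difference of thapsigargin responses between GemR siCont and Par siCont was flagged by the threshold of the fit across all genes. That flag is no test, since the choice of genes used this contrast. The difference, GemR siCont minus Par siCont on the log2 scale, was 2.73 for CXCL1, 1.77 for CXCL3, 0.92 for CXCL8 and 2.59 for CXCR4. The value of CXCL8 lost the threshold in 10 other settings, given with that gene above. For CXCR4 all libraries of Par siCont moved down and all of GemR siCont up. CXCR4 moved in opposite directions in GemR siCont and GemR siSTIM1 as well, where the difference (GemR siSTIM1 minus GemR siCont) was -2.41. The members were chosen with these responses known, so these values are a description.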

How the results depend on the processing

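Of 2329 recomputed values of the 9 genes, 2216 kept direction and side of the threshold, 45 lost a call, 28 gained one and 40 changed sign. The 40 were values not called in either fit. The number of genes called among the 9 moved by over 1.5 times in the following cases. GemR siCont against Par siCont with thapsigargin went from 3 to 1 with a 2-fold minimum, 7 in a fit of those groups alone and 5 with edgeR. For siSTIM1 against siCont it went from 4 to 2 in vehicle (groups alone, edgeR and DESeq2) and from 5 to 3 with thapsigargin (DESeq2). In the fit of the GemR siCont and Par siCont thapsigargin groups alone, fold changes stayed the same and standard errors were smaller. Those were 0.095 for CXCL2, 0.087 for CXCL3 and 0.12 for CCL20, against 0.28, 0.25 and 0.31. For siSTIM1 in vehicle with the groups alone, CXCL5 fell below the filter and was not tested. The cause of the other moves was not tested. With the length-trend pair left out it moved less, from 7 to 8 for GemR siCont against Par siCont in vehicle, 4 to 5 for the difference of responses between them and 7 to 6 for thapsigargin in GemR siSTIM1. Over all tested genes, edgeR called 4843 for GemR siCont against Par siCont in vehicle, 6299 with thapsigargin, 4382 and 4906 for siSTIM1 in vehicle and with thapsigargin, and 1846 and 345 for the differences of responses. Across settings the share of genes called ranged from 24.5% to 52.6% for thapsigargin in Par siCont, 20.04% to 38.5% in GemR siCont and 14.5% to 30.7% in GemR siSTIM1. It ranged from 23.8% to 42.6% and 30.8% to 61.7% for GemR siCont against Par siCont, 24.95% to 46.7% and 22.4% to 46.2% for siSTIM1, and 8.55% to 29.4% and 2.14% to 9.28% for the differences of responses.

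Sign changes, all in log2 fold change, follow. CXCL5 with thapsigargin in GemR siCont was -0.021 with a pseudocount of 5, -0.30 with quantile normalization, -0.14 with edgeR and -0.15 with DESeq2, and -0.44 to 0.74 with 1 library left out. Its difference of responses, GemR siCont minus Par siCont, was -0.11, -0.34, -0.22 and -0.23 in those settings and -0.0024 with median centring, and -0.53 to 0.65 with 1 library left out. Its siSTIM1 difference was -0.42 with the length-trend pair left out, and -0.32 to 0.85. For siSTIM1 against siCont in vehicle, CXCL2 was -0.077 with quantile normalization, -0.25 with edgeR and -0.24 with DESeq2, and -0.19 to 0.30 with 1 library left out. CXCL16 was -0.031, -0.070 and -0.054 in those settings, and -0.053 to 0.086. CXCL1 and CXCL8 were 0.034 and 0.069 with the pair left out, and -0.36 to 0.034 and -0.31 to 0.069. With 1 library left out CXCL2 in vehicle, GemR siCont against Par siCont, was -0.39 to 0.24, CXCL6 with thapsigargin in GemR siSTIM1 -0.13 to 0.76, and CCL20's difference of responses, GemR siCont minus Par siCont, -0.32 to 0.45. The siSTIM1 difference was 0.029 with edgeR and 0.012 with DESeq2 for CXCL2, and 0.12 with edgeR for CXCL6.

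The length-trend pair, replicate 1 of GemR siCont vehicle with replicate 1 of GemR siSTIM1 thapsigargin, was chosen after seeing the data. CXCL16's difference of responses, GemR siCont minus Par siCont, was called in 11 of the settings. Same-numbered libraries of the groups compared directly correlated between -0.18 and 0.23 in their deviations, so the numbers were not taken as pairs (GemR siSTIM1 thapsigargin and GemR siCont vehicle, which meet only in a difference of responses, reached 0.14 to 0.49), and the replicate block changed 0 of the calls (3 and 4 genes called for the differences of responses, as without it). Counts below about 10 reads limit CXCL5 and CXCL6 in GemR.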

Other observations

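The transcripts most like each gene over the 18 libraries, among 10934 genes with a mean of at least 50, were ranked by Pearson's r of log2(normalized count + 1). The libraries fall into 6 groups, so r mostly reflects group means, and no p is given. CXCL1 was most like CLDN4 (r = 0.970), a tight junction claudin, followed by ATP1B1 (0.968) and CLDN3 (0.961). CXCL2 was most like SLC25A25 (0.983), a mitochondrial carrier, and HERPUD1 (0.979), a gene of ER-associated degradation. For CXCL3 the first was RNF19B (0.977), and CDKN1A, the cell cycle inhibitor p21, had 0.964. CXCL8 was most like PLAUR (0.989), the urokinase receptor, and ARG2 (0.987). ARG2 also stood high for CCL20 (0.956), beside IER3 (0.957). CXCL5 was most like COL3A1 (0.990), CXCL6 like ENO2 (0.929), CXCL16 like SPPL3 (0.931) and CXCR4 like ERF (0.932).

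Among the 9 genes themselves, r was 0.961 for CXCL3 with CXCL8, 0.947 for CXCL8 with CCL20, 0.917 for CXCL2 with CXCL3 and 0.869 for CXCL5 with CXCL6. CXCR4 had r of -0.25 with CXCL2 and 0.787 with CXCL16. These too are over 18 libraries of 6 groups and carry no p.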
